A study of Homo sapiens with 10 samples.

Results

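Depletion of SET by siRNA was examined in a U2OS-derived line labelled p53 KO, in 4 of the 10 RNA-seq libraries of the series. They were chosen by their titles: 2 libraries of the KO-labelled line carried control siRNA and 2 carried SET siRNA, both for 96 h. U2OS is a human osteosarcoma cell line grown here in DMEM with serum. The remaining 6 libraries are of a control CRISPR line labelled p53 WT, 3 with control siRNA and 3 with SET siRNA. Both lines came out of CRISPR/Cas9 construct transfection, selection and clone identification, so the KO-labelled cells stand for a selected line and not for p53 loss in general. The series' design text contradicts itself on the CRISPR target, giving it as SET in one place and p53 in another, and the lines are therefore called KO-labelled and WT-labelled here. Libraries of a group are labelled as biological replicates, with no word on separate cultures, so p-values reflect only how far these libraries spread. That spread was pooled over all 10 libraries, 6 of them of the WT-labelled line.

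SET (also I2PP2A or TAF-I beta) is an acidic nuclear protein. It works as a histone chaperone, masks histone tails from acetyltransferases, inhibits protein phosphatase 2A (PP2A) and binds the acetylation-controlled tail of p53, whose target genes it holds down. In cells with p53, removal of SET is therefore studied for release of p53 targets. The KO-labelled line asks what the same siRNA does to mRNA levels in cells labelled as lacking p53. Values are FPKM, fragments scaled by transcript length and by the number of mapped fragments, and changes are differences of log2(FPKM + 1), SET siRNA minus control siRNA, given with the standard error (SE). This scale understates the change of low genes. A gene was called where the Benjamini-Hochberg adjusted p of limma over all 14813 tested genes was below 0.05, and every adjusted p of a gene below is of that kind.

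SET itself was 158 and 169.7 FPKM with control siRNA and 14.9 and 14.9 FPKM with SET siRNA, an 10.99-fold fall (log2 change -3.37 ± 0.06 SE, adjusted p = 5.1e-09). SET lies on chromosome 9, 131445934 to 131458675, in the coordinates of the files, whose genome build no source used here states. The groups did not overlap, and SET also fell in the WT-labelled line (log2 change -3.21). MDM2, the p53-induced ubiquitin ligase of p53, served as a check on the line labels. It was 13.1 and 15.7 FPKM with control siRNA and 16.4 and 16.8 FPKM with SET siRNA in the KO-labelled line (log2 change 0.20, adjusted p = 0.12), and it was called higher with the GC adjustment described below (0.27, adjusted p = 0.0056) and without the second control library (0.32, adjusted p = 0.027). In the WT-labelled line the means were 40.9 and 204 FPKM, and the difference of the responses was -2.10 on the log2 scale (adjusted p = 4.9e-05). CDKN1A, the CDK inhibitor p21, had a mean of 6.67 FPKM in KO-labelled and 162 FPKM in WT-labelled cells with control siRNA.

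The authors' files hold no counts, so depth is not known here. Between 13804 and 13894 genes reached FPKM 1 in the 4 KO-labelled libraries. Of 9 osteoblast lineage markers 5 reached FPKM 1 in at least 1 of the 4 libraries and IBSP was listed at 0 in all. The 5 mesenchymal markers all reached it. On SET siRNA 4 of the osteoblast lineage and all 5 mesenchymal markers were called lower and none higher. Of 7 epithelial markers 2 reached FPKM 1, EPCAM and CLDN4, the latter at up to 8.21 FPKM. Among the 7, 1 was called higher and 1 lower. Of 8 blood markers none reached FPKM 1, and their summed level was 0.389 to 0.56 FPKM with control siRNA and 0.412 to 0.499 FPKM with SET siRNA. Of 7 endothelial markers 1 reached it, CLDN5 at up to 1.01 FPKM. The 2 control libraries of the KO-labelled line stood further apart than any other pair within a group, by the spread of genes at FPKM 10 or more. Among 6752 genes at FPKM 10 or more in every library, the SD of their log2 difference was 0.19, against 0.107 for the 2 SET siRNA libraries and 0.107 to 0.135 for the pairs of the WT-labelled line. That difference followed base composition: across 12371 genes it had a Spearman correlation of 0.747 with the GC content of the transcript, against 0.31 between the 2 SET siRNA libraries. The change on SET siRNA itself correlated with GC content at 0.261. Counts below were therefore repeated after each library was adjusted for transcript GC, an alternative chosen after seeing the data.

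SET siRNA changed a large share of the transcriptome by small amounts. Of 14813 tested genes 5571 were called (37.6%), 2926 higher (19.8%) and 2645 lower (17.9%). These shares are printed as the background beside the counts of gene groups. The groups were chosen with earlier results of these data known, so their counts are a description and were not tested against that background. The median absolute change of the called genes was 0.39 on the log2 scale, and 78.7% of them changed less than 1.5-fold. At least 2-fold changes were called for 247 genes, 102 higher and 145 lower. With a pseudocount of 0.1 in place of 1 that count was 527, 261 higher and 266 lower. With the GC adjustment it was 183 over 12371 genes, 67 higher and 116 lower. The count of all called genes was 3463 without the first and 3696 without the second SET siRNA library of the line, 4317 without its second control library and 5832 without its first. With only the 4 KO-labelled libraries in the fit 3202 genes were called, 1595 higher and 1607 lower. With median-of-ratios scaling 2648 were higher and 2887 lower, so the balance turned. With the GC adjustment 6001 of 12371 genes were called, and of the 4832 called without it among those same genes 4567 were called in the same direction.

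The 12 largest falls by the naming rule were SET and 11 further genes of varied function. COL3A1, the chain of type III collagen, was 16.3 and 13.7 FPKM with control siRNA and 1.99 and 1.19 FPKM with SET siRNA (log2 change -2.64 ± 0.23 SE, adjusted p = 5.3e-05). EDN2, the vasoconstrictor peptide endothelin-2, was 6.201 and 5.62 FPKM with control siRNA and 0.291 and 0.489 FPKM with SET siRNA (log2 change -2.32 ± 0.16 SE, adjusted p = 1.5e-05). KRT17, a keratin of basal and injured epithelium, was 96.4 and 77.7 FPKM with control siRNA and 20.1 and 16.7 FPKM with SET siRNA (log2 change -2.18 ± 0.15 SE, adjusted p = 1.6e-05). TPM4, a tropomyosin that coats actin filaments, was 114 and 129.7 FPKM with control siRNA and 29.4 and 33.7 FPKM with SET siRNA (log2 change -1.92 ± 0.09 SE, adjusted p = 3.3e-06). In each of these both SET siRNA libraries lay below both control libraries, though with 2 libraries a group 67.5% of all tested genes did not overlap between the groups. EDIL3, an integrin-binding secreted protein, fell from 131 and 148 to 40.1 and 40.4 FPKM, and TNNC1, the calcium sensor of troponin, from 13.9 and 12.6 to 3.48 and 3.04 FPKM. FOXS1, a forkhead transcription factor, fell from 9.67 and 7.79 to 2.17 and 1.53 FPKM, and CXCR7, a scavenging chemokine receptor now named ACKR3, from 12.8 and 12.2 to 3.39 and 2.57 FPKM. The remaining names among the 12 largest falls are uncertain. SETP20 (5.92 and 6.62 to 0.507 and 0.291 FPKM) is a pseudogene copy of SET whose reads cannot be kept apart from those of SET, LOC100652779 (12.4 and 25.1 to 3.69 and 4.55 FPKM) lies within the span of CANX, and LOC645638 fell from 14.3 and 10.3 to 2.35 and 2.59 FPKM.

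The largest rises came from genes that were low or nearly silent with control siRNA. HTN1, which encodes the salivary antimicrobial peptide histatin 1, was 1.93 and 3.02 FPKM with control siRNA and 23.7 and 23.4 FPKM with SET siRNA (log2 change 2.84 ± 0.15 SE, adjusted p = 5.0e-06). Its neighbouring paralog HTN3 was 2.17 and 1.42 FPKM with control siRNA and 12.5 and 9.31 FPKM with SET siRNA (log2 change 2.09 ± 0.25 SE, adjusted p = 3.1e-04), and as near copies the pair may share reads. LINC00326, a long intergenic noncoding RNA, was 0.678 and 0.745 FPKM with control siRNA and 9.75 and 10.4 FPKM with SET siRNA (log2 change 2.70 ± 0.13 SE, adjusted p = 3.3e-06), and LINC00161 rose from 0.703 and 0.175 to 6.203 and 7.25 FPKM. UCA1, a long noncoding RNA first known from bladder carcinoma, was 3.44 and 2.92 FPKM with control siRNA and 22.4 and 20.98 FPKM with SET siRNA (log2 change 2.44 ± 0.11 SE, adjusted p = 3.3e-06). ATP6V0D2, a subunit of the vacuolar proton pump known from osteoclasts, was 0.916 and 1.01 FPKM with control siRNA and 7.74 and 8.31 FPKM with SET siRNA (log2 change 2.20 ± 0.13 SE, adjusted p = 6.9e-06). NOS3, the endothelial nitric oxide synthase, rose from 0.326 and 0.295 to 4.34 and 3.74 FPKM and FRG2, a gene of the subtelomere of chromosome 4, from 0.302 and 0.246 to 3.68 and 3.54 FPKM. NOS3 overlaps ATG9B on the map of the files. In each of these genes both SET siRNA libraries lay above both control libraries, which is the usual case at 67.5% of tested genes without overlap. The plot of values by library shows several of these rises. LINC00326, LINC00161, NOS3 and FRG2 were below FPKM 1 in both control libraries. Within the line they meet the filter of FPKM 1 in 2 libraries only through SET siRNA, so their rises support nothing by themselves. The same limit holds for any gene named here that is under FPKM 1 in both libraries of a group.

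The genes of 3 keratin-associated proteins, structural proteins of the hair shaft, were listed at 0 in both control libraries. KRTAP20-2 was 3.11 and 2.38 FPKM with SET siRNA (log2 change 1.90 ± 0.11 SE, adjusted p = 6.7e-06), and KRTAP21-2 was 2.36 and 3.604 FPKM (log2 change 1.98 ± 0.39 SE, adjusted p = 0.0042). KRTAP19-1 was 2.69 and 2.74 FPKM, but its call was lost without any 1 of the 4 KO-labelled libraries (adjusted p = 0.017 with all). LOC100652895 was 1.48 and 0.00000198 FPKM with control siRNA and 6.503 and 3.06 FPKM with SET siRNA. It overlaps VPS4B, and its call was lost without the second control or the first SET siRNA library. Of 13 salivary and keratin-associated genes chosen, 12 were matched to an entry, and 6 passed the filter on low values and were called higher. This supports nothing by itself. A gene that is at 0 in the controls and passes through the libraries in which it is high had to differ. The list was also chosen with these genes in view.

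**Figure D1:**
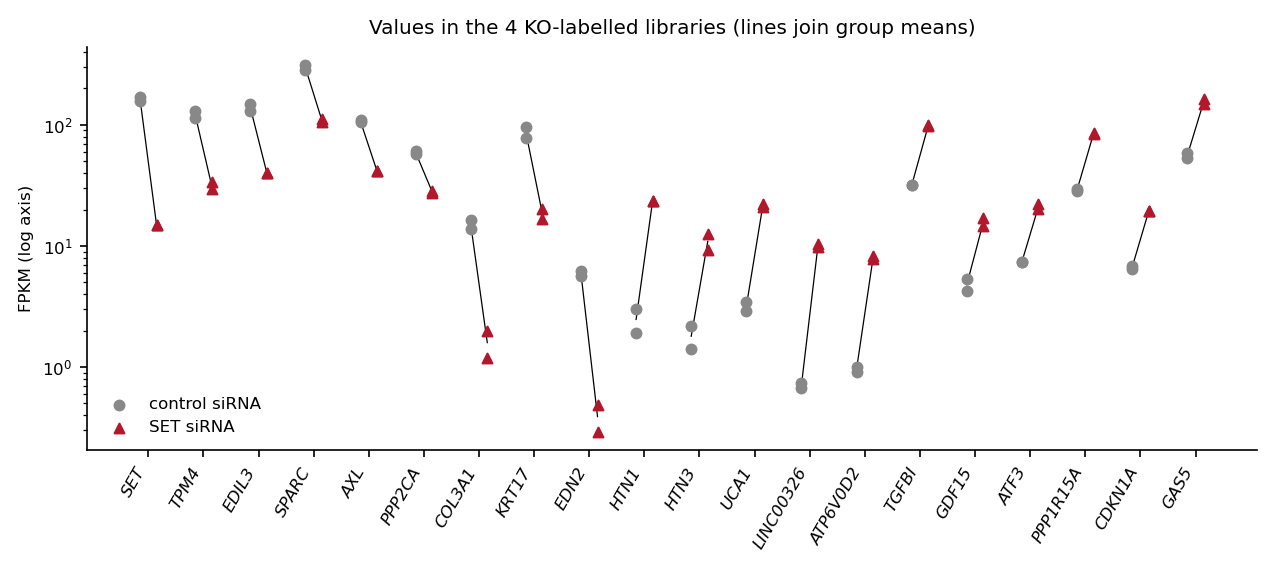
FPKM on a log axis (vertical) of 20 genes (horizontal) in the 2 control siRNA libraries (grey circles) and the 2 SET siRNA libraries (red triangles) of the KO-labelled line, with lines joining the group means. The groups do not overlap in any of the 20 genes, as in 67.5% of all tested genes, and SET sits at 14.9 FPKM in both SET siRNA libraries against 158 and 170 FPKM in the controls.

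A short sequence in the 3′ UTR went with the falls. All 7-base words present in the 3′ UTR of at least 200 genes were compared over 11705 tested genes with a GENCODE 3′ UTR, by the median log2 change of genes with the word minus that of genes without it. This scan was made after the data had been seen, so its leading word describes the data and was not tested. Of 14179 words, GAATACA had the lowest difference, -0.21, and the next, TGAATAC, shares 6 of its bases and stood at -0.16. GAATACA also had the highest share of genes called lower. Of 1391 genes with at least 1 site 42.1% were called lower and 7.48% higher, against 15.9% and 22.6% of the 10314 genes without one, where all tested genes stand at 17.9% and 19.8%. The median change was 0.04 with no site, -0.16 with 1, -0.21 with 2 and -0.23 with 3 or more. Of the 117 genes with a 3′ UTR called at least 2-fold lower 41 held a site (35.0%), of the 73 called at least 2-fold higher 1 did (1.37%), and of all 11705 genes 11.9% did. In the WT-labelled line the same word had a difference of -0.09 and ranked 12. There 36.6% of the genes with a site were called lower, against 24.5% of those without.

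Sites stood in the transcripts of SET itself, of TPM4 and EDIL3 among the 12 largest falls, and of PPP2CA, CANX and TMEM123 outside them. They are shown here with 12 bases before and 5 after the word, on the transcript's strand, from GENCODE release 29 transcripts (GRCh38), with the word in capitals.
SET, chr9:128694834-128694857, plus strand: ataccttgagcaGAATACAatggg
TPM4 first site, chr19:16101457-16101480, plus strand: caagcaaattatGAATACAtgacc
TPM4 second site, chr19:16101677-16101700, plus strand: ccacactttgaaGAATACAgaccc
EDIL3, chr5:83941025-83941048, minus strand: gtaccataagtaGAATACAtgtaa
PPP2CA, chr5:134197440-134197463, minus strand: ttaacacctcgtGAATACAattta
CANX, chr5:179729698-179729721, plus strand: aagtacagaataGAATACAttgat
TMEM123, chr11:102398833-102398856, minus strand: ggaccaaggatgGAATACAgattg
Within the printed stretch of SET, the words ranked 3, 4 and 5 by the scan also occur on the same strand. Each overlaps GAATACA there, so they are not separate matches. The word ranked 6, TCAAGGT, and the word ranked 8, which is CAAGGTA, occur there as their reverse complements and overlap each other. COL3A1, EDN2, KRT17, FOXS1 and TNNC1 held no site. No source used here states the SET siRNA sequence, and whether it pairs with these sites was not tested. Genes with a site are marked as such below.

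The word is itself a choice made on these changes, so its values within classes of UTR are a description. The 3′ UTRs were split into 3 equal classes by GC content. In the lowest class the medians were -0.22 with a site and -0.04 without, in the middle class -0.13 and 0.04, and in the highest class -0.10 and 0.11. In the shortest of 3 length classes they were -0.17 and 0.08, and in the longest -0.16 and -0.01. The medians in the WT-labelled line were -0.24 with a site and 0.02 without in the shortest class, and -0.01 and 0.06 in the longest. The 1 site followed by A gave a median of -0.23 over 309 genes, against -0.12 to -0.15 for the other 3 bases. When genes with a site were left out and genes without a 3′ UTR sequence were kept, 4882 called genes were left, 2822 higher and 2060 lower.

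**Figure D2:**
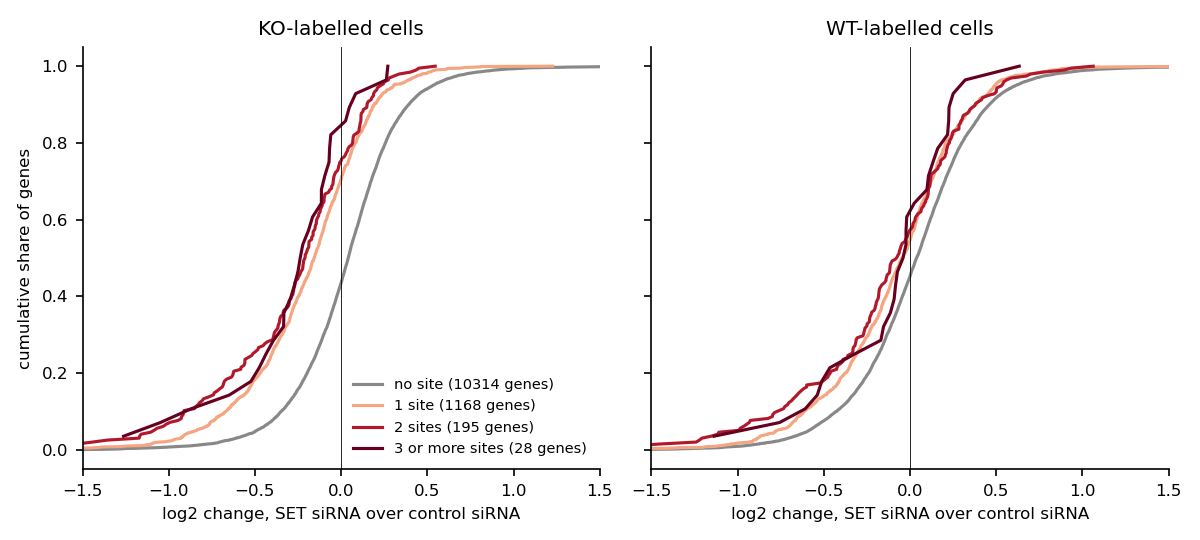
Cumulative share of genes (vertical) by log2 change on SET siRNA (horizontal, -1.5 to 1.5) for genes with 0, 1, 2 or 3 or more GAATACA sites in the 3′ UTR, in the KO-labelled line (left) and the WT-labelled line (right). In the KO-labelled line the curves with a site lie to the left of the curve without, with medians of -0.16, -0.21 and -0.23 against 0.04, and the curves lie closer together in the WT-labelled line.

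PP2A was examined as a binding partner of SET. It is the serine/threonine phosphatase that SET inhibits, built of a catalytic, a scaffold and an exchangeable regulatory subunit. The catalytic subunit PPP2CA was 57.9 and 60.6 FPKM with control siRNA and 27.4 and 28.7 FPKM with SET siRNA (log2 change -1.05 ± 0.06 SE, adjusted p = 5.5e-06), and its 3′ UTR holds a site. The second catalytic subunit PPP2CB stood at 33.6 and 37.3 and 36.9 and 36.7 FPKM and the main scaffold PPP2R1A at 151 and 129.7 and 147 and 135 FPKM, and neither was called. Of 14 tested regulatory subunits 8 were called lower and 1 higher, with a median change of -0.27 against 0.02 over all tested genes, and 5 were lower without the first SET siRNA library. Site-bearing members of the group include PPP2R5D (81.5 and 81.6 to 55.5 and 55.95 FPKM, log2 change -0.54 ± 0.04 SE, adjusted p = 2.4e-05), the substrate adaptor B56 delta, and PPP2R2B (1.85 and 1.85 to 0.902 and 0.707 FPKM). PPP2R3A, with no site, fell from 3.45 and 4.18 to 2.42 and 2.48 FPKM. PPME1, the methylesterase that demethylates the catalytic subunit, rose from 43.4 and 42.4 to 50.3 and 53.02 FPKM. Among 16 histone chaperones and SET complex members 4 were lower and 2 higher. Besides SET these include SUPT16H, the large subunit of the FACT chaperone (56.6 and 59.7 to 40.3 and 43.4 FPKM, log2 change -0.47 ± 0.05 SE, adjusted p = 2.6e-04), and NAP1L4, a SET relative with 1 site (60.8 and 65.1 to 42.6 and 45.3 FPKM). The abundant chaperones NPM1 and PTMA were not called. Of 12 acetyltransferases and deacetylases that act on p53, KAT2B fell from 3.795 and 4.35 to 1.97 and 2.12 FPKM and EP300, whose 3′ UTR has 1 site, from 31.6 and 31.4 to 25.9 and 25.96 FPKM, while the 3 called higher were lost without the second control or the first SET siRNA library.

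Of 55 tested genes linked to the integrated stress response 37 were called higher, 2 lower and 16 neither. In this response kinases that sense amino acid shortage, unfolded proteins or viral RNA phosphorylate eIF2 alpha, which favours translation of the transcription factor ATF4. ATF4 then induces genes of amino acid synthesis and transport and of tRNA charging, and with CHOP it drives stress outputs. Of 13 kinases and factors 8 were called higher and 1 lower (median 0.76), against 19.8% and 17.9% of all tested genes. ATF4 was 421 and 409.7 FPKM with control siRNA and 682 and 726 FPKM with SET siRNA (log2 change 0.76 ± 0.05 SE, adjusted p = 1.1e-05). ATF3, a stress-induced relative of ATF4, was 7.39 and 7.42 FPKM with control siRNA and 20.1 and 22.2 FPKM with SET siRNA (log2 change 1.40 ± 0.07 SE, adjusted p = 4.5e-06). DDIT3, which encodes CHOP, was 38.3 and 39.7 FPKM with control siRNA and 94.5 and 94.9 FPKM with SET siRNA (log2 change 1.26 ± 0.07 SE, adjusted p = 5.0e-06), in a span shared with MARS. PPP1R15A, or GADD34, the regulatory subunit that returns eIF2 alpha to its unphosphorylated form, was 29.5 and 28.6 FPKM with control siRNA and 84.04 and 85.5 FPKM with SET siRNA (log2 change 1.52 ± 0.06 SE, adjusted p = 1.9e-06). NUPR1, a small stress-induced chromatin protein, rose from 75.4 and 73.1 to 171 and 179 FPKM, and its 3′ UTR holds 1 site. The heme-sensing kinase EIF2AK1 fell from 86.5 and 89.5 to 73.4 and 77.4 FPKM, a call lost without the first SET siRNA library.

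Genes that act downstream were counted by role. Of 11 amino acid synthesis genes 6 were higher and 1 lower. ASNS, asparagine synthetase, was 97.3 and 106 FPKM with control siRNA and 166 and 173 FPKM with SET siRNA (log2 change 0.73 ± 0.06 SE, adjusted p = 3.7e-05), and SHMT2, the mitochondrial serine hydroxymethyltransferase, rose from 111 and 102 to 163 and 159 FPKM. MTHFD2 of the mitochondrial folate cycle rose from 159.8 and 172 to 227 and 235 FPKM and PHGDH, the first enzyme of serine synthesis, from 194 and 168 to 255 and 244 FPKM. PSAT1, the next enzyme of serine synthesis, went the other way, from 48.8 and 54.4 to 40.2 and 43.04 FPKM, and its call was lost without the first SET siRNA library. Of 10 amino acid transporters 7 were higher. SLC3A2, the shared heavy chain of heteromeric exchangers, rose from 191 and 175 to 295 and 274 FPKM (log2 change 0.64 ± 0.06 SE, adjusted p = 6.4e-05). SLC7A1, the cationic amino acid carrier, rose from 28.8 and 27.1 to 42.1 and 43.002 FPKM, and SLC7A11, the cystine carrier, with 2 sites, was not called at 28.9 and 34.3 and 34.4 and 37.6 FPKM, but was called higher with the GC adjustment (log2 change 0.30, adjusted p = 0.00036).

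Of 13 genes of tRNA charging and export 11 were higher (median 0.41). CARS, the cysteinyl synthetase, was 50.8 and 50.9 FPKM with control siRNA and 77.5 and 84.98 FPKM with SET siRNA (log2 change 0.66 ± 0.05 SE, adjusted p = 3.9e-05), and AARS, the alanyl synthetase, rose from 50.5 and 47.7 to 78.2 and 76.4 FPKM. YARS rose from 108 and 108 to 165 and 167 FPKM. Among 8 stress outputs 5 were higher. GDF15, a secreted stress cytokine that signals to the hindbrain, was 4.21 and 5.37 FPKM with control siRNA and 14.6 and 16.9 FPKM with SET siRNA (log2 change 1.54 ± 0.12 SE, adjusted p = 3.5e-05). It overlaps LOC100653010, so the 2 share reads. SESN2, a sestrin that restrains mTORC1, was 14.99 and 13.9 FPKM with control siRNA and 31.6 and 31.8 FPKM with SET siRNA (log2 change 1.08 ± 0.06 SE, adjusted p = 6.3e-06). CHAC1, which degrades glutathione, rose from 14.01 and 11.3 to 23.02 and 23.004 FPKM and VEGFA, the angiogenic growth factor, from 34.9 and 34.004 to 48.5 and 49.9 FPKM. DDIT4, an mTORC1 inhibitor with 1 site, was 126 and 109 and 99.4 and 95.7 FPKM and not called. With the GC adjustment the counts higher were 9, 7, 8, 12 and 5 in the 5 groups, in the order given here.

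**Figure D3:**
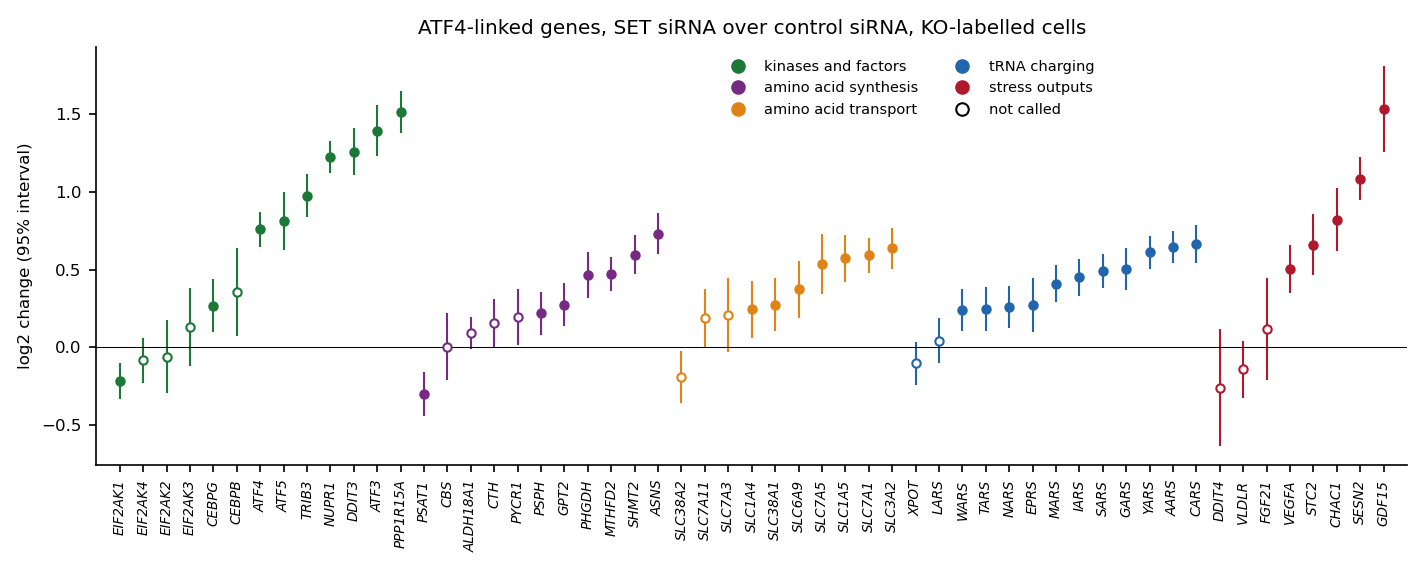
Log2 change on SET siRNA in the KO-labelled line (vertical, points with 95% intervals from limma) for the 55 tested genes of the ATF4-linked lists (horizontal), coloured by role and sorted within role. Open circles were not called, and most filled circles lie above 0, led by GDF15 at 1.54 and PPP1R15A at 1.52.

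Protein-folding genes of the endoplasmic reticulum were also counted. Of 21 chaperones and unfolded protein response genes 1 was higher and 4 lower. Without the first or the second SET siRNA library of the line 2 were lower, and without the third SET siRNA library of the WT-labelled line 4 were higher and 7 lower. CANX, the lectin chaperone calnexin with 1 site, was 198 and 222 FPKM with control siRNA and 96.3 and 100.4 FPKM with SET siRNA (log2 change -1.09 ± 0.11 SE, adjusted p = 9.8e-05), and EDEM1, which hands misfolded glycoproteins to degradation, fell from 34.5 and 36.1 to 25.1 and 24.8 FPKM. HERPUD1, a degradation adaptor that ATF4 also controls, was the 1 called higher (27.4 and 26.6 to 35.4 and 35.3 FPKM). The abundant chaperone CALR was not called. Cytosolic heat shock genes were higher in 10 of 18 and lower in 1, though 5 were higher without the second SET siRNA library. The near-identical HSPA1A and HSPA1B, which the counting cannot separate, rose from 104 and 88.8 to 197 and 179.5 and from 97.5 and 83.9 to 186 and 167 FPKM. HSP90AB1 rose from 1094 and 1090.1 to 1279 and 1315 FPKM. CRYAB, the small heat shock protein of muscle and lens, fell from 167 and 153 to 79.3 and 80.98 FPKM (log2 change -0.99 ± 0.05 SE, adjusted p = 4.4e-06).

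Promoter sequences were searched for 7 motifs. RefSeq promoter windows (GRCh38.p14), 250 bases before to 50 after the start, were matched by symbol for 6718 tested genes with exactly 1 window. The word TATAAA on the gene's strand, starting 40 to 20 bases before the start, stood in 2.05% of all 6718 windows. It stood in 11.1% (24) of 217 genes called higher at least 1.5-fold and in 3.20% (9) of 281 genes called lower at least 1.5-fold. Anywhere in the window and on either strand the shares were 5.54%, 16.1% and 6.05%. The AP-1 word TGAGTCA, on either strand, stood in 3.32% of all windows, 7.83% of the risers and 3.91% of the fallers. The cAMP response element TGACGTCA stood in 3.62%, 5.07% and 2.85%. The C/EBP-ATF word TGATGCAA stood in 0.417%, 0.461% and 0.712%. CCAAT stood in 38.0%, 43.3% and 32.0%, the TEAD word GGAATG in 10.7%, 14.7% and 14.9%, and the E-box TCACGTGA in 2.14%, 1.84% and 0.712%. These differences were not tested. The motifs were searched after the data had been seen and a match is a description. The start regions of 5 genes that rose and hold the word there are shown on the gene's strand, with TATAAA in capitals. They run from 40 bases before to 10 after the start. The 5 were picked by hand and do not stand for the 217 risers, most of which lack the word there.
GDF15, chr19:18386118-18386167, plus strand: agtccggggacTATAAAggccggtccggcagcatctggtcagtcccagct
PPP1R15A, chr19:48872381-48872430, plus strand: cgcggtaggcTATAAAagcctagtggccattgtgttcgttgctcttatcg
FRG2, chr4:190027247-190027296, minus strand: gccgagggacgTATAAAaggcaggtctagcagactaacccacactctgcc
KRTAP20-2, chr21:30635166-30635215, plus strand: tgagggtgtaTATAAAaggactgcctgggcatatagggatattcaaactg
KRTAP21-2, chr21:30747250-30747299, minus strand: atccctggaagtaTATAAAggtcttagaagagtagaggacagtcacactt
In these 5 the word begins 27 to 30 bases before the start. The start regions of HTN1 and HTN3 hold none and are identical at 48 of 50 positions.
HTN1, chr4:70050398-70050447, plus strand: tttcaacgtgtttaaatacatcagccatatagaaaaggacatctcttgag
HTN3, chr4:70028419-70028468, plus strand: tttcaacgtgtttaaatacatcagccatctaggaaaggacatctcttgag

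Genes known as p53 targets split in the KO-labelled line. p53 induces genes that stop the cell cycle, feed back on p53, start apoptosis and repair DNA. Of 15 tested arrest and feedback targets 5 were higher and 5 lower (median -0.08), and 3 were lower without the first SET siRNA library. CDKN1A was 6.84 and 6.51 FPKM with control siRNA and 19.4 and 19.3 FPKM with SET siRNA, a 2.8998-fold rise (log2 change 1.41 ± 0.06 SE, adjusted p = 1.9e-06), and GADD45A, a growth arrest gene also induced by ATF4, was 30.8 and 31.2 FPKM with control siRNA and 62.6 and 59.7 FPKM with SET siRNA (log2 change 0.96 ± 0.05 SE, adjusted p = 5.0e-06). The other 3 called higher were PLK3, a stress kinase, and GDF15 and SESN2, which are also in the list of stress outputs. TP53INP1 with 2 sites was 5.56 and 6.05 FPKM with control siRNA and 2.88 and 2.897 FPKM with SET siRNA (log2 change -0.81 ± 0.10 SE, adjusted p = 2.7e-04). CCNG1, cyclin G1, with 1 site, fell from 110.1 and 136 to 73.9 and 75.8 FPKM and ZMAT3, an RNA-binding splicing regulator with 1 site, from 5.61 and 6.097 to 3.94 and 3.59 FPKM. Of 14 repair and metabolism targets 4 were lower. XPC, the damage sensor of nucleotide excision repair, fell from 16.6 and 16.1 to 12.9 and 12.9 FPKM (log2 change -0.32 ± 0.04 SE, adjusted p = 6.5e-04).

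Of 12 apoptosis targets 6 were higher and 3 lower. AEN, an apoptosis-enhancing nuclease, rose from 19.2 and 17.2 to 35.5 and 34.5 FPKM (log2 change 0.91 ± 0.06 SE, adjusted p = 1.6e-05). PMAIP1, the BH3-only protein NOXA, with 1 site, rose from 45.9 and 55.2 to 78.1 and 77.04 FPKM, and TNFRSF10B, the TRAIL receptor DR5 and a known CHOP target, from 20.6 and 19.4 to 28.3 and 30.002 FPKM. BBC3, the BH3-only protein PUMA, rose from 8.39 and 5.66 to 11.04 and 12.7 FPKM. APAF1, the apoptosome scaffold with 2 sites, fell from 5.29 and 5.83 to 2.72 and 2.66 FPKM (log2 change -0.83 ± 0.10 SE, adjusted p = 2.6e-04). TP53I3 fell from 47.7 and 43.04 to 33.5 and 29.04 FPKM and the death receptor gene FAS from 2.32 and 2.99999 to 1.64 and 1.86 FPKM, which overlaps ACTA2. In the wider BCL2 family 8 of 16 members were higher and 2 lower, but 4 were higher without the first and 5 without the second SET siRNA library. BMF, a BH3-only protein, fell from 12.1 and 11.5 to 4.99 and 5.03 FPKM (log2 change -1.09 ± 0.10 SE, adjusted p = 5.2e-05). Among decoys, TNFRSF11B, the osteoprotegerin that binds RANKL and TRAIL, rose from 5.48 and 5.86 to 12.03 and 11.6 FPKM (log2 change 0.94 ± 0.12 SE, adjusted p = 4.0e-04).

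CDK inhibitors other than CDKN1A leaned down. Of 7 tested members CDKN1A was the 1 called higher and 5 were called lower, against 3 without the first control or the first SET siRNA library and 2 without the second SET siRNA library. CDKN2B, the inhibitor p15 with 2 sites, fell from 8.91 and 8.51 to 6.49 and 6.33 FPKM and CDKN3, a phosphatase of CDK2, from 172 and 186 to 131 and 141 FPKM.

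Cell cycle genes changed little and in both directions. Of 41 G1/S and replication genes 19 were called higher and 5 lower (median 0.16), with 11 higher without the first and 7 without the second SET siRNA library. CCNE1, cyclin E1, was 46.7 and 47.4 FPKM with control siRNA and 70.3 and 68.6 FPKM with SET siRNA (log2 change 0.55 ± 0.05 SE, adjusted p = 6.1e-05). E2F2, an activating E2F, rose from 17.003 and 16.1 to 23.96 and 24.2 FPKM, and GINS3 of the replicative helicase from 13.2 and 14.3 to 19.4 and 20.02 FPKM. E2F7, a repressive E2F with 1 site, fell from 23.1 and 25.6 to 15.7 and 17.1 FPKM and CDK6 from 17.2 and 19.9 to 12.8 and 13.7 FPKM. Of 30 G2/M genes 3 were higher and 5 lower, fewer in each direction than the background shares, and the 5 became 8 without the first control library and 2 or 3 without any other 1 of the 10 libraries. CCNA2, cyclin A2, with 2 sites, was the exception in size at 66.6 and 73.2 FPKM with control siRNA and 31.6 and 33.2 FPKM with SET siRNA (log2 change -1.08 ± 0.06 SE, adjusted p = 6.3e-06). Of 25 homologous recombination and checkpoint genes 3 were lower, among them NBN of the break-sensing complex (24.6 and 28.5 to 16.4 and 17.05 FPKM), while 5 were lower without the first control library and 3 were higher without the second. HIST1H1C, a linker histone whose transcripts are also polyadenylated, rose from 72.1 and 62.4 to 117 and 120.2 FPKM (log2 change 0.81 ± 0.09 SE, adjusted p = 2.3e-04).

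Of 34 contractile and SRF-linked genes 18 were called lower and 16 were not called. Tropomyosins and the troponin complex control access of myosin to actin, and many of their genes respond to serum response factor (SRF). Of 7 tested tropomyosin and troponin genes 4 were lower (median -1.10). Besides TPM4 and TNNC1 these were TPM1, with 1 site, at 248 and 267 FPKM with control siRNA and 114 and 125 FPKM with SET siRNA (log2 change -1.10 ± 0.06 SE, adjusted p = 5.9e-06), and TNNT2, cardiac troponin T, at 2.11 and 1.77 FPKM with control siRNA and 0.296 and 0.203 FPKM with SET siRNA (log2 change -1.23 ± 0.11 SE, adjusted p = 5.2e-05). TPM3 was not called, and TPM2 was not called but was called lower with the GC adjustment (log2 change -0.22, adjusted p = 0.0018). Of 27 SRF targets 14 were lower (51.9% against 17.9%), and with the GC adjustment 19 were lower and 1 higher. TAGLN, the actin-binding transgelin, was 162 and 146 FPKM with control siRNA and 63.5 and 65.5 FPKM with SET siRNA (log2 change -1.24 ± 0.06 SE, adjusted p = 3.3e-06). VCL, vinculin of focal adhesions, fell from 59.5 and 63.1 to 38.1 and 37.1 FPKM, MYL9, a myosin light chain, from 222 and 193 to 129 and 136 FPKM, and CALD1, caldesmon, from 53.7 and 61.7 to 36.6 and 36.9 FPKM. The housekeeping actin gene ACTB was not called.

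Of 56 matrix genes 26 were called lower, 10 higher and 20 neither. Of 18 tested collagens 9 were lower and 6 higher, and 2 were higher without the second control or the first SET siRNA library. COL5A1 was 25.3 and 21.95 FPKM with control siRNA and 9.41 and 9.02 FPKM with SET siRNA (log2 change -1.27 ± 0.11 SE, adjusted p = 5.6e-05) and COL5A2 19.5 and 18.9 FPKM with control siRNA and 8.81 and 7.57 FPKM with SET siRNA (log2 change -1.14 ± 0.08 SE, adjusted p = 1.4e-05), the chains of type V collagen. COL1A1, the main chain of bone collagen and the most abundant here, was 290.3 and 236 FPKM with control siRNA and 158 and 146 FPKM with SET siRNA (log2 change -0.78 ± 0.12 SE, adjusted p = 0.0011). COL13A1, a transmembrane collagen, was the largest rise, from 4.12 and 3.604 to 8.14 and 7.53 FPKM (log2 change 0.86 ± 0.07 SE, adjusted p = 2.8e-05). Of 22 noncollagen proteins 11 were lower and 2 higher. SPARC, osteonectin, with 2 sites, was 310.4 and 284 FPKM with control siRNA and 112 and 105 FPKM with SET siRNA (log2 change -1.44 ± 0.07 SE, adjusted p = 3.3e-06). MFAP2 of elastic microfibrils fell from 142 and 117 to 77.4 and 71.3 FPKM and the proteoglycan LUM from 33.5 and 38.5 to 21.01 and 19.2 FPKM. Against these, TGFBI, an integrin ligand induced by TGF-beta, was 31.7 and 31.7 FPKM with control siRNA and 97.7 and 99.2 FPKM with SET siRNA (log2 change 1.61 ± 0.06 SE, adjusted p = 1.5e-06), and LAMB3, a laminin chain of epithelial basement membrane, rose from 53.7 and 46.8 to 93.8 and 86.8 FPKM. FN1, fibronectin, was not called at 194 and 169 and 202 and 173 FPKM.

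Of 16 crosslinking and folding enzymes 6 were lower and 2 higher. LOXL1, a lysyl oxidase, was 49.2 and 38.1 FPKM with control siRNA and 14.7 and 13.8 FPKM with SET siRNA (log2 change -1.54 ± 0.11 SE, adjusted p = 1.9e-05), and PLOD2, which hydroxylates collagen lysines for crosslinks, fell from 32.8 and 37.1 to 22.9 and 21.7 FPKM. Among 15 metalloproteinases and inhibitors 7 were lower and 2 higher. The 2 were the collagenase MMP1 (0.378 and 0.415 to 2.62 and 2.96 FPKM, log2 change 1.44 ± 0.13 SE, adjusted p = 6.4e-05) and the stromelysin MMP3 (125 and 137 to 222 and 224 FPKM, log2 change 0.76 ± 0.11 SE, adjusted p = 8.8e-04), neighbours that both overlap LOC100288077. MMP16 with 3 sites fell from 15.6 and 18.8 to 11.9 and 11.4 FPKM and the inhibitor TIMP3 from 19.6 and 18.4 to 11.6 and 11.2 FPKM. Of 13 integrins 6 were lower and 3 higher. ITGAV, the vitronectin receptor chain, was 52.2 and 60.2 FPKM with control siRNA and 29.1 and 30.5 FPKM with SET siRNA (log2 change -0.89 ± 0.07 SE, adjusted p = 4.2e-05), while ITGA5 of the fibronectin receptor rose from 58.8 and 54.1 to 68.9 and 67.9 FPKM. Without the first SET siRNA library 1 integrin was higher. The receptor kinase AXL was 109 and 105 FPKM with control siRNA and 41.7 and 41.4 FPKM with SET siRNA (log2 change -1.34 ± 0.05 SE, adjusted p = 1.4e-06), with no site.

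Signals that organise the matrix went both ways. TGF-beta and BMP ligands bind serine kinase receptors that phosphorylate SMAD proteins. Of 12 tested ligand and latency genes 5 were lower and 4 higher, with 1 or 2 higher without the second control or either SET siRNA library. BMP6 fell from 4.22 and 5.096 to 1.56 and 1.33 FPKM (log2 change -1.21 ± 0.15 SE, adjusted p = 4.1e-04) and LTBP1, which stores latent TGF-beta in the matrix, from 20.4 and 21.5 to 12.4 and 12.4 FPKM, while BMP2 rose from 2.46 and 2.91 to 5.398 and 4.66 FPKM. Of 18 receptors and SMADs 6 were lower and 2 higher, and 3 were lower without the first SET siRNA library. BMPR2, the type II BMP receptor with 1 site, was 15.6 and 17.3 FPKM with control siRNA and 8.91 and 9.12 FPKM with SET siRNA (log2 change -0.80 ± 0.06 SE, adjusted p = 2.9e-05). Of the inhibitor of differentiation genes that BMP signalling induces, ID1 rose from 389.6 and 345 to 514 and 491 FPKM and ID3 from 167 and 138 to 249 and 240.3 FPKM. FSTL1, a secreted BMP antagonist, fell from 123 and 132 to 68.96 and 70.4 FPKM (log2 change -0.86 ± 0.07 SE, adjusted p = 3.5e-05). Of 18 YAP and TEAD targets and partners 6 were lower and 3 higher. F3, tissue factor with 2 sites, fell from 5.61 and 5.85 to 2.39 and 2.71 FPKM, whereas ANKRD1 rose from 154 and 169 to 231 and 240.2 FPKM. Among Wnt genes 6 of 17 were lower, such as DKK3 (111 and 105 to 64.8 and 62.03 FPKM), and 3 were higher, with WNT3 the largest (3.39 and 3.26 to 7.18 and 6.74 FPKM, log2 change 0.88 ± 0.09 SE, adjusted p = 1.1e-04).

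Of 55 AP-1 and growth signalling genes 26 were called higher, 13 lower and 16 neither. AP-1 dimers of JUN and FOS proteins answer to ERK signalling, which dual-specificity phosphatases and Sprouty proteins switch off again. Of 10 ERK feedback genes 6 were higher. DUSP5, a nuclear ERK phosphatase, was 6.44 and 6.07 FPKM with control siRNA and 13.8 and 13.9 FPKM with SET siRNA (log2 change 1.03 ± 0.06 SE, adjusted p = 6.8e-06), and ETV4 and ETV5, ERK-induced ETS factors, rose from 44.3 and 39.4 to 76.5 and 78.5 and from 20.5 and 20.97 to 36.4 and 36.5 FPKM. SPRY2 rose from 5.03 and 5.799 to 9.49 and 10.2 FPKM. Of 6 EGF receptor ligands 4 were higher. TGFA was 2.802 and 2.18 FPKM with control siRNA and 7.44 and 6.18 FPKM with SET siRNA (log2 change 1.16 ± 0.13 SE, adjusted p = 1.7e-04) and AREG, amphiregulin, rose from 0.937 and 1.06 to 2.28 and 2.37 FPKM. Of 22 receptor tyrosine kinases 6 were higher and 9 lower, and among the 6 EGFR rose from 2.94 and 3.16 to 4.93 and 5.15 FPKM (log2 change 0.58 ± 0.06 SE, adjusted p = 2.1e-04). Of 17 AP-1 and immediate early genes 10 were higher and 4 lower. Without the second control library 6 were higher, and without the second SET siRNA library 6 were higher and 1 lower. FOSL1, the FOS relative of transformed cells, was 26.5 and 22.4 FPKM with control siRNA and 50.02 and 49.9 FPKM with SET siRNA (log2 change 1.00 ± 0.09 SE, adjusted p = 4.9e-05), MAFF rose from 8.39 and 7.74 to 18.5 and 20.5 FPKM and IER3 from 49.97 and 43.5 to 94.2 and 105 FPKM. FOSL2, with 1 site, fell from 33.7 and 30.1 to 25.05 and 24.4 FPKM.

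Of 34 inflammation genes 18 were called higher, 2 lower and 14 neither, and of 38 interferon genes 2 were called higher, 19 lower and 17 neither. Of 14 tested cytokines and chemokines 7 were higher and 1 lower, and 4 were higher without the second SET siRNA library. CXCL3, a neutrophil chemokine, was 0.418 and 0.303 FPKM with control siRNA and 2.85 and 2.81 FPKM with SET siRNA (log2 change 1.49 ± 0.12 SE, adjusted p = 3.9e-05), and IL8 rose from 2.39 and 2.997 to 6.26 and 8.405 FPKM (log2 change 1.17 ± 0.14 SE, adjusted p = 3.3e-04). Of 20 NF-kB subunits and feedback genes 11 were higher and 1 lower. Feedback regulators rose. TNFAIP3, the ubiquitin editor A20, rose from 2.997 and 2.91 to 5.19 and 5.44 FPKM (log2 change 0.68 ± 0.09 SE, adjusted p = 5.5e-04). NFKBIZ, an atypical nuclear IkB protein, rose from 3.39 and 4.06 to 6.79 and 8.01 FPKM and the inhibitor NFKBIB from 24.03 and 19.3 to 36.98 and 36.5 FPKM. SOD2, the mitochondrial superoxide dismutase with 3 sites, fell from 95.9 and 99.2 to 70.4 and 73.3 FPKM. Of 20 interferon effectors 11 were lower and 1 higher. IFI6 fell from 17.7 and 17.1 to 9.57 and 7.91 FPKM (log2 change -0.92 ± 0.16 SE, adjusted p = 0.002), IFIT1 from 13.3 and 14.6 to 9.51 and 7.58 FPKM and HERC6 from 2.03 and 2.06 to 0.755 and 0.784 FPKM, while the exonuclease ISG20 rose from 4.49 and 3.399 to 9.92 and 8.14 FPKM. Of 18 sensors and signalling genes 8 were lower and 1 higher, but 3 or 4 were lower without the second control or either SET siRNA library. IRF2 fell from 7.57 and 9.15 to 4.33 and 4.81 FPKM (log2 change -0.75 ± 0.09 SE, adjusted p = 3.9e-04). Of 15 MHC class I presentation genes 6 were lower and 1 higher, and with the GC adjustment 10 were lower and 1 higher. PSMB9, an immunoproteasome subunit, was 4.33 and 3.99 FPKM with control siRNA and 1.58 and 0.658 FPKM with SET siRNA (log2 change -1.32 ± 0.19 SE, adjusted p = 9.0e-04), and TAPBP, tapasin with 1 site, was 26.1 and 20.9 FPKM with control siRNA and 12.4 and 11.3 FPKM with SET siRNA (log2 change -0.92 ± 0.10 SE, adjusted p = 2.0e-04). The heavy chain HLA-B was not called.

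**Figure D4:**
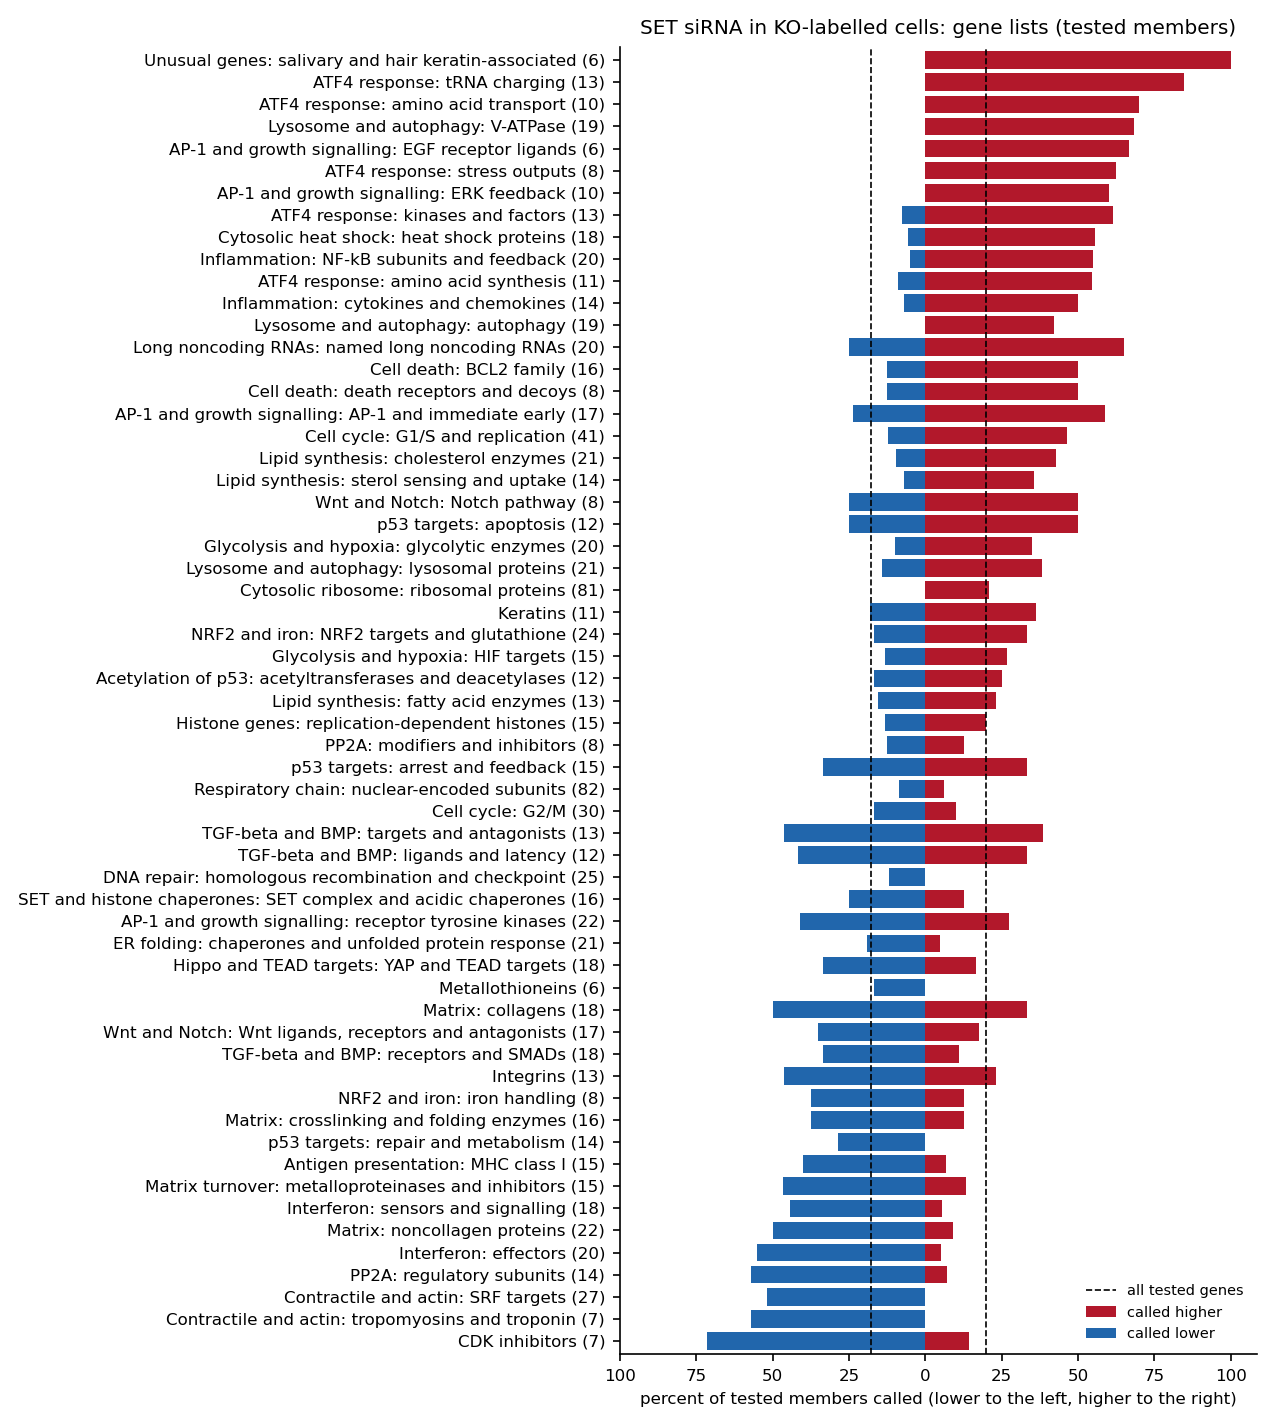
Percent of tested members called higher (red, right) and lower (blue, left) on SET siRNA in the KO-labelled line for 59 gene lists of at least 6 tested members, whose number stands in brackets, sorted by the difference. Dashed lines mark the shares of all 14813 tested genes, 19.8% higher and 17.9% lower. tRNA charging, amino acid transport and V-ATPase genes lie furthest right after the 6 genes chosen for their rise, and CDK inhibitors, tropomyosins and SRF targets furthest left.

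Lysosomal and lipid genes were counted next. Of 21 lysosomal proteins 8 were higher and 3 lower, with 4 higher without the first SET siRNA library. The V-ATPase acidifies lysosomes. Of 19 tested subunits 13 were higher, but 6 or 7 were higher without the second control or either SET siRNA library. Besides ATP6V0D2, the ubiquitous ATP6V0B rose from 116 and 103 to 190.2 and 182 FPKM (log2 change 0.76 ± 0.06 SE, adjusted p = 4.7e-05). Of 19 autophagy genes 8 were higher, with 4 higher without either SET siRNA library. GABARAPL1, of the ATG8 family that coats autophagosomes, was 59.8 and 60.7 FPKM with control siRNA and 111 and 113 FPKM with SET siRNA (log2 change 0.88 ± 0.05 SE, adjusted p = 6.5e-06), and the initiating kinase ULK2 rose from 3.84 and 4.35 to 7.68 and 7.72 FPKM. LAMP2, a lysosomal membrane protein with 1 site, fell from 56.1 and 61.5 to 38.5 and 38.2 FPKM. Of 21 cholesterol synthesis enzymes 9 were higher and 2 lower. MVK, mevalonate kinase, was 12.1 and 10.9 FPKM with control siRNA and 19.1 and 17.8 FPKM with SET siRNA (log2 change 0.64 ± 0.08 SE, adjusted p = 3.1e-04), and DHCR7, the last enzyme of the pathway, rose from 38.6 and 32.8 to 55.6 and 54.2 FPKM. Of 14 sterol sensing and uptake genes 5 were higher and 1 lower, with 3 higher without the first SET siRNA library. Of 13 fatty acid enzymes 3 were higher and 2 lower, near the background shares. Among these ACSL1, with 1 site, fell from 15.7 and 18.1 to 9.96 and 9.51 FPKM.

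Redox genes changed in both directions. Of 24 NRF2 targets and glutathione genes 8 were higher and 4 lower, and 5 were higher without the first SET siRNA library. The aldo-keto reductases AKR1C1, AKR1C2 and AKR1C3, close copies whose reads may be split, fell from 18.6 and 17.9 to 6.02 and 4.44, from 9.37 and 9.602 to 2.69 and 2.47 and from 69.1 and 59.8 to 30.1 and 28.6 FPKM. By contrast HMOX1, heme oxygenase, was 73.9 and 66.2 FPKM with control siRNA and 113 and 114 FPKM with SET siRNA (log2 change 0.69 ± 0.07 SE, adjusted p = 8.5e-05), and TXNRD1, thioredoxin reductase, rose from 208 and 223 to 285 and 297 FPKM. OSGIN1 rose from 33.7 and 27.2 to 63.1 and 56.99 FPKM. The metallothionein MT1E fell from 265 and 238 to 146 and 174 FPKM (log2 change -0.65 ± 0.10 SE, adjusted p = 0.0011), the 1 called among 6 tested.

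Glycolytic enzymes gave no stable count, 7 of 20 higher with all libraries and 1 to 3 without the second control or either SET siRNA library. SLC2A3, the glucose transporter GLUT3, rose from 22.5 and 24.2 to 39.03 and 39.2 FPKM (log2 change 0.72 ± 0.06 SE, adjusted p = 5.0e-05) and LDHA, lactate dehydrogenase A, fell from 657 and 706 to 546 and 538 FPKM. Of 82 respiratory chain subunits 5 were higher and 7 lower, below the background. Without the first control library 15 were higher and 13 lower, and without the second SET siRNA library 3 were higher. SDHB of succinate dehydrogenase, with 1 site, was 149 and 155 FPKM with control siRNA and 79.9 and 92.2 FPKM with SET siRNA (log2 change -0.82 ± 0.10 SE, adjusted p = 3.0e-04). Ribosomal protein genes were called higher in 17 of 81, a share near the background, and in 3 to 30 of 81 when 1 library was left out: 30 without the first and 4 without the second control library, 3 without the first and 8 without the second SET siRNA library, and 10 without any 1 SET siRNA library of the WT-labelled line.

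Long noncoding RNAs, several of them hosts of small nucleolar RNAs, mostly rose. Of 20 long noncoding RNAs in the list 13 were higher and 5 lower, and 2 were lower without the second control or the first SET siRNA library. GAS5, a snoRNA host that is degraded when translated, was 58.5 and 53.001 FPKM with control siRNA and 164 and 149 FPKM with SET siRNA (log2 change 1.47 ± 0.07 SE, adjusted p = 3.3e-06), SNHG6 rose from 278 and 286 to 566 and 551 FPKM and SNHG1 from 106 and 112 to 183 and 186 FPKM. MIAT fell from 2.75 and 2.39 to 0.575 and 0.543 FPKM (log2 change -1.19 ± 0.10 SE, adjusted p = 4.4e-05) and TUG1 from 57.4 and 65.2 to 43.9 and 47.3 FPKM. Reads of the hosted snoRNAs cannot be kept apart from their hosts in these files.

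The response was then set against that of the WT-labelled line. Of the 5571 genes called in KO-labelled cells 3622 (65.0%) were called in the same direction in WT-labelled cells, and of the 247 called at least 2-fold 226 were. In either direction 3886 of the 5571 were called in WT-labelled cells. Calls were common in that line: of 11705 tested genes with a 3′ UTR 26.0% were called lower there. The share called higher there is not given here. The 2 responses differed by limma in 2831 genes, with the KO-labelled response above the other in 1274 (8.6% of those tested) and below it in 1557 (10.5%). The count moved with single libraries. It was 1143 without the first and 1466 without the second SET siRNA library, 1724 without the second control library and 4589 without the first, and 1820 and 1760 without the first or second SET siRNA library of the WT-labelled line. Across 12371 genes the difference correlated with transcript GC content at 0.476, and with the GC adjustment 3205 of those genes were called, 1750 above and 1455 below, so the balance turned. Of the 2459 called without it among those same genes 2054 were called in the same direction. Values and adjusted p in the next paragraphs are of the difference, KO-labelled minus WT-labelled response, on the log2 scale.

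p53 targets were compared between the lines. All 15 tested arrest and feedback targets responded less in KO-labelled cells, also when any 1 library was left out and with the GC adjustment. So did 14 of 14 repair and metabolism targets, 12 or more without any 1 library and 13 with the GC adjustment, and 8 of 12 apoptosis targets, 5 without the first SET siRNA library. TP53INP1 fell in KO-labelled cells and rose by 1.06 in WT-labelled cells (difference -1.87, adjusted p = 8.9e-05). FAS went from 2.32 and 2.99999 to 1.64 and 1.86 FPKM against a rise of 1.33 (difference -1.74, adjusted p = 8.9e-05), and TP53I3 likewise against 1.10 (difference -1.63, adjusted p = 8.7e-05). SESN1, a sestrin, was 3.48 and 3.55 and 2.55 and 2.94 FPKM against a rise of 1.59 (difference -1.86, adjusted p = 4.9e-05), and its own call in KO-labelled cells was lost without the second control or the first SET siRNA library. CDKN1A and GDF15 rose in both lines, by 1.41 and 1.54 against 2.15 and 3.32 (differences -0.74 and -1.79, adjusted p = 4.7e-04 and 3.0e-04). SLPI, a secreted protease inhibitor, was 2.06 and 0.896 FPKM and then listed at 0 in both SET siRNA libraries (difference -1.55, adjusted p = 0.012). LOC100652898, which overlaps EGR1, differed by -1.56 (adjusted p = 0.01).

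Cell cycle genes differed the other way, and most of them fell in the WT-labelled line. The G2/M group had a median change of -0.49 there, with 27 called lower and 0 higher. Its median change in the KO-labelled line was -0.06. The G1/S and replication group had a median of -0.40 in the WT-labelled line, with 33 called lower and 4 higher. Its median in the KO-labelled line was 0.16. For comparison, 26.0% of 11705 tested genes with a 3′ UTR were called lower in the WT-labelled line. Of 30 G2/M genes 23 had a higher response in KO-labelled cells, 17 or more without any 1 library and 28 with the GC adjustment. Of 41 G1/S and replication genes 29 were higher and 2 lower in this sense. CCNA2 changed by -1.08 in KO-labelled and by -1.62 in WT-labelled cells (difference 0.54, adjusted p = 0.0031). E2F2 changed by 0.52 against -0.52 (difference 1.04, adjusted p = 2.1e-04), and CCNE1 differed by 0.72 (adjusted p = 3.0e-04). Of 21 cholesterol enzymes 10 responded more, though 6 without the first and 4 without the second SET siRNA library of the line, and 6 without the second control, the first SET siRNA or the second SET siRNA library of the WT-labelled line.

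Several rises were larger in, or seen in, the KO-labelled line. G0S2, an inhibitor of triglyceride lipase, went from 6.64 and 6.12 to 17.97 and 21.1 FPKM (difference 1.20, adjusted p = 0.0031). SLCO4A1, an organic anion transporter, went from 6.89 and 5.91 to 16.7 and 16.9 FPKM (difference 1.13, adjusted p = 0.0013), and SPRR2D, a cornified envelope protein, from 0.483 and 0.368 to 2.82 and 2.92 FPKM (difference 1.31, adjusted p = 0.0052). UCA1 differed by 0.93 (adjusted p = 0.004), and ETV4 by 0.80 (adjusted p = 9.7e-04). The ATF4 factors ATF3 and NUPR1 rose less than in WT-labelled cells, by -0.97 and -0.48 (adjusted p = 4.3e-04 and 0.0014), as did ASNS (-0.76, adjusted p = 5.0e-04), while ATF4 itself showed no called difference (-0.15, adjusted p = 0.13). In all 264 genes were called in opposite directions in the 2 lines, 135 of them higher in the KO-labelled line, and the difference was called in each.

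**Figure D5:**
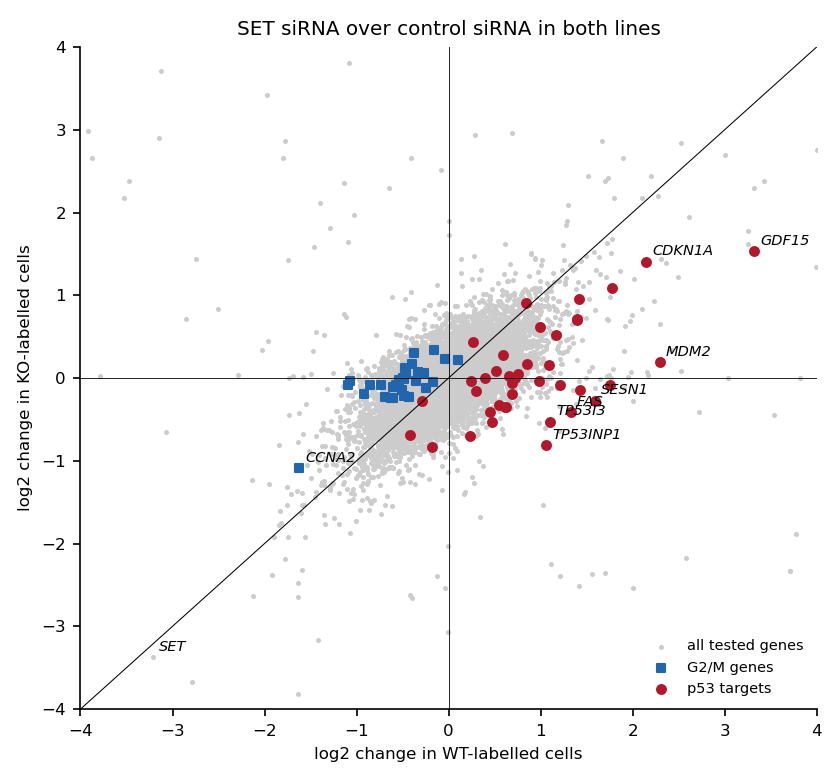
Log2 change on SET siRNA in the KO-labelled line (vertical) against that in the WT-labelled line (horizontal) for the tested genes, with p53 targets in red and G2/M genes as blue squares; the diagonal marks equal change and 18 of 14813 genes lie outside the axes. Most p53 targets lie below the diagonal, with MDM2 at 0.20 against 2.29, and G2/M genes above it.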

How the data were processed

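Total RNA of 10 samples was sequenced from TruSeq libraries, per the labels' protocols, and the 4 libraries of the KO-labelled line carry the comparison. The deposited values are FPKM per gene with 95% intervals. The submitters' processing notes name bcl2fastq 1.8.4, TopHat2 2.0.4 and Cufflinks 2.0.2, and the build is not given in the sources used here. Read depth is not known. The authors' FPKM intervals had a median half-width of 7.44 to 9.21% of the value per library. FPKM carries no correction for base composition that the files state, so differences in GC content between libraries remain in the values.

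Of 25593 entries, 14813 that reached FPKM 1 in 2 or more libraries entered the tests. log2(FPKM + 1) was fitted in limma 3.58.1 (R 4.3.3) with 4 group means over all 10 libraries and a trended empirical Bayes variance. Contrasts were SET siRNA minus control siRNA in each line and their difference, at a Benjamini-Hochberg adjusted p of 0.05. The script was tested on simulated data with the same random spread in every library and no effect of GC content. That test cannot speak to the wider, GC-linked gap between the control libraries of the KO-labelled line. Transcript GC content was matched for 12371 genes (83.5%), and 3′ UTRs came from GENCODE release 29. Members and gene lists were chosen with earlier results of these data known. Named genes were the 12 largest rises and 12 largest falls without overlap and with a mean of at least 2 FPKM, SET, CDKN1A, MDM2 and GDF15, the most changed and most abundant members of each list, and the largest differences between the lines. PLK3 was named outside this rule, after its values were seen. Same-numbered libraries of the KO-labelled line had deviations that correlated at 0.0032, so the replicate numbers were not taken as pairs. Alternatives were another pseudocount, filter, scaling, weighting, block, significance threshold or set of libraries, and, chosen after seeing the data, the GC adjustment and leaving out genes with a GAATACA site.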

Additional observations from a re-analysis of the deposited data

Results flagged for a closer look

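SET siRNA gave different changes in the KO-labelled and the WT-labelled line, by limma's test of the difference itself at an adjusted p under 0.05, in the genes listed here. Values are the KO-labelled minus the WT-labelled log2 change. Among p53 targets the difference was negative in each case, for MDM2 (-2.10), TP53INP1 (-1.87), SESN1 (-1.86), GDF15 (-1.79), FAS (-1.74), TP53I3 (-1.63), ZMAT3 (-0.99), CCNG1 (-0.93), XPC (-0.87), CDKN1A (-0.74), BBC3 (-0.70), SESN2 (-0.69), PLK3 (-0.68), APAF1 (-0.65), TNFRSF10B (-0.64), GADD45A (-0.46) and PMAIP1 (-0.37). Genes of the ATF4 response and of protein folding with a negative difference were ATF3 (-0.97), CHAC1 (-0.77), ASNS (-0.76), SLC7A11 (-0.70), PSAT1 (-0.53), NUPR1 (-0.48), DDIT3 (-0.38), MTHFD2 (-0.32), HERPUD1 (-0.39) and EDEM1 (-0.42). Cell cycle genes with a positive difference were E2F2 (1.04), CCNE1 (0.72), GINS3 (0.70), CCNA2 (0.54) and CDKN3 (0.36). Those with a negative one were E2F7 (-0.78) and CDKN2B (-0.67). Sterol and lipid genes with a positive difference were G0S2 (1.20), DHCR7 (0.70) and MVK (0.63). Other genes with a positive difference were LOC100652895 (3.10), KRTAP21-2 (3.00), KRTAP20-2 (1.90), SPRR2D (1.31), SLCO4A1 (1.13), UCA1 (0.93), TNNT2 (0.90), ETV4 (0.80), CXCL3 (0.60), FRG2 (0.58), HSPA1B (0.51), ID3 (0.51) and TNFRSF11B (0.51). KRTAP20-2 and KRTAP21-2 had no signal in the control libraries of the KO-labelled line. Such genes enter the tests through libraries in which they are high, so their differences support nothing by themselves. Smaller positive differences were those of HSPA1A (0.51), IFIT1 (0.49), TIMP3 (0.42), WNT3 (0.41), ACTB (0.41), SNHG1 (0.40), FOSL1 (0.37), TGFBI (0.36) and ETV5 (0.33). Other genes with a negative difference were CRYAB (-0.26), AXL (-0.30), TUG1 (-0.37), TXNRD1 (-0.40), GABARAPL1 (-0.41), COL5A2 (-0.42), ANKRD1 (-0.42), ITGAV (-0.45), KAT2B (-0.47), MT1E (-0.52), EDIL3 (-0.57), LUM (-0.58), AKR1C3 (-0.66), NOS3 (-0.67), EDN2 (-0.73), AKR1C1 (-0.91), AKR1C2 (-0.94), COL3A1 (-1.005), MMP3 (-1.22), SLPI (-1.55) and LOC100652898 (-1.56). The call of the difference was lost when at least 1 library was left out for CXCL3, FRG2, HSPA1B, ID3, TNFRSF11B, HSPA1A, IFIT1, TIMP3, WNT3, ACTB, FOSL1, CDKN3, TGFBI, CRYAB, MTHFD2, TUG1, PMAIP1, DDIT3, HERPUD1, TXNRD1, EDEM1, COL5A2, ANKRD1, ITGAV, KAT2B, MT1E, LUM, NOS3, BBC3, EDN2 and COL3A1. The difference correlated with transcript GC content at 0.476 (Spearman, across genes). Of 2459 differences called among genes with a known transcript GC, 2054 were called in the same direction with the GC adjustment. The values listed here are without that adjustment, and which of these genes kept their call under it is not given.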

How the results depend on the processing

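Of 186 genes named, 173 were called, and 164 of these calls held under each of 21 alternatives in which the gene was tested, with no direction reversed. A gene that an alternative left out, such as BMP6 under the stricter filter, was counted as held there. The count of called genes, 5571, was 3202 with only the 4 KO-labelled libraries in the fit and 3241 at an adjusted p of 0.01, and leaving out 1 library gave 3463 to 5832. The count called at least 2-fold, 247, was 527 (261 higher, 266 lower) with a pseudocount of 0.1, and leaving out 1 library gave 240 to 282. The count for the difference between the lines, 2831, ranged from 1143 to 4589 when 1 library was left out. The cause was not tested. The 2-fold count was 183 with the GC adjustment, over 12371 genes (67 higher, 116 lower), and 200 with the stricter filter (80 higher, 120 lower). Without genes that hold a GAATACA site it was 205, 101 higher and 104 lower. With the replicate number as a block the counts were 5508, 251 and 2569. The numbers do not pair the libraries of the KO-labelled line, and in the WT-labelled line the correlations of deviations were -0.0833, -0.0261 and 0.0728. With only the 4 KO-labelled libraries 7 named calls were lost, among them FAS, HSP90AB1, ITGA5 and PPME1. When 1 library leaves a group with a single sample, the fit takes its spread from the other groups. The number of control libraries, 2, and the unknown depth limit what small changes can show.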
